A study of Mus musculus with 4 samples.

Results

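The EAG, ERG and ELK genes, Kcnh1 to Kcnh8, encode the pore subunits of a family of voltage-gated K+ channels. They were taken by symbol from the deposited table of estimated counts, where all 8 were found among 24411 genes. The libraries came from mouse cochlear tissue at postnatal day 7. Homozygous animals carried a knockout of Otof on both alleles, and heterozygous animals, against which they were set, carried it on 1 allele, so no library came from wild-type mice. Otof encodes otoferlin, through which calcium triggers transmitter release from inner hair cells, and by its title the series concerns what these cells contribute to the rise of K+ and HCN channels as spiral ganglion neurons mature. Each library pooled the cochleas of both ears from 2 to 3 pups, dissected as for the study's patch-clamp recordings, with 2 pools per genotype. Neither the strain nor the design of the knockout allele is stated in the sources used here.

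Channels of this family assemble from 4 pore subunits and carry an N-terminal PAS domain and a C-terminal domain that resembles those of cyclic nucleotide-gated channels. EAG channels open with depolarisation and are inhibited by calcium-bound calmodulin. ERG channels inactivate quickly and pass most of their current as the membrane repolarises, which steadies the resting potential and limits repetitive firing, and ELK channels pass current below the firing threshold. In auditory neurons, currents active near rest help to set how many spikes a depolarisation evokes.

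The 8 genes are shown by the coding sequence of their selectivity filter, the stretch of the pore that gives the family its K+ selectivity and by which its members are recognised. Each line gives 45 bases of the coding strand, 5′ to 3′, from the longest coding transcript of GENCODE M21, with the 3 filter codons in capitals. As background, these codons read glycine, phenylalanine and glycine in this family, where most other voltage-gated K+ channels have tyrosine in the middle.
Kcnh1: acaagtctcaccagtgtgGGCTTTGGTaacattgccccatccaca
Kcnh5: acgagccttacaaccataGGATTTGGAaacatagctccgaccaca
Kcnh2: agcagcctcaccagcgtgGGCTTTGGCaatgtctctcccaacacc
Kcnh6: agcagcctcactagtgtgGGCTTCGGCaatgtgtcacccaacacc
Kcnh7: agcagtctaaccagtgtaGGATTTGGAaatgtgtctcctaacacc
Kcnh3: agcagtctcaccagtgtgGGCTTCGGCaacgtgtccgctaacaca
Kcnh4: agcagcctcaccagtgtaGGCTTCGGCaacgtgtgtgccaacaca
Kcnh8: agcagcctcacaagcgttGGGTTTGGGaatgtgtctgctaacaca

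The stretch lay within 1 coding exon in each gene. For Kcnh8 this was exon 8 of 16, at chr17:52877979-52878023 on the plus strand (GRCm38). For Kcnh2 it was exon 7 of 15, at chr5:24325537-24325581 on the minus strand, and for Kcnh6 exon 6 of 13, at chr11:106019064-106019108 on the plus strand. The filter codons were spelled in 5 ways, with 3 genes (Kcnh3, Kcnh4 and Kcnh6) sharing a spelling, and Kcnh5 and Kcnh7 sharing another. The stretches of any pair differed at 5 to 19 of the 45 bases.

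The members share little sequence. Over the whole coding sequence, identity was 54.1% to 68.8% within the EAG, ERG and ELK groups and 45.2% to 53.2% between groups. Of the 28 pairs of genes, 1 shared any word of 31 bases across its annotated transcripts. That pair was Kcnh2 and Kcnh6, with 13 shared words of the 3572 in Kcnh6. Kcnh3 shares exonic sequence with Mcrs1 on the opposite strand and Kcnh7 with Gca, and the strand setting of the counting is not stated in the sources used here. Mcrs1 had 69.8 and 73.8 CPM (counts per 1000000) in the homozygous pools and 69.3 and 79.6 CPM in the heterozygous pools. Gca had 7.40 and 6.04 CPM in the homozygous pools and 9.00 and 9.88 CPM in the heterozygous pools. Both neighbours lay well above the channel gene they overlap, so values of Kcnh3 and Kcnh7 are uncertain.

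The libraries held 38090724 and 31509350 estimated counts in the homozygous pools and 36060278 and 32453536 in the heterozygous pools. A count of 0 allows up to 3 counts, 0.0776 to 0.0944 CPM on the scaled library sizes, and this covers counting error only. Otof itself had 0.129 and 0.280 CPM in the homozygous pools and 2.42 and 2.61 CPM in the heterozygous pools, which matches the labels. Among hair cell markers, Atoh1 had 0 counts in every library, Pou4f3 had 0 counts in both homozygous pools and 7 and 0 in the heterozygous pools, and Slc26a5 had 6 and 0 in the homozygous pools and 7 and 3 in the heterozygous pools. Gfi1, Tmc1, Strc, Ocm, Chrna9, Chrna10, Cabp2 and Loxhd1 were also sparse, with totals of 2 to 42 counts over all libraries. Some other genes of that list were well detected. Myo6 had 5253 and 3450 counts in the homozygous pools and 5570 and 5026 in the heterozygous pools, Myo7a had 1207 and 1457 in the homozygous and 1197 and 1467 in the heterozygous pools, and Slc17a8 had 549 and 494 in the homozygous and 470 and 217 in the heterozygous pools. In all, 8 of 18 hair cell markers passed the filter on low counts. In bulk tissue, fewer cells of a type and less RNA per cell cannot be told apart.

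Kcnh8 was the 1 member that rose in the homozygous pools by DESeq2, and 0 members fell. DESeq2 called 4.13% of all genes tested, 0.983% as higher and 3.15% as lower. By edgeR's quasi-likelihood test 0 members passed an adjusted p of 0.05, as did 0% of all 15359 genes, whose smallest adjusted p was 0.101. At an unadjusted edgeR p under 0.05, 2 members were higher, Kcnh8 and Kcnh6, and 0 were lower, against 13.3% of all genes in either direction, 4.36% as higher and 8.91% as lower. For 6 of the 8 members all homozygous pools lay on 1 side of all heterozygous pools in CPM, 3 higher and 3 lower. The same was true of 46.1% of all genes, 21.6% higher and 24.5% lower. Among the 6, Kcnh4 passed the filter through its homozygous pools only. The nearest pools of Kcnh3 (0.530 homozygous, 0.534 heterozygous CPM) and Kcnh7 (0.621 homozygous, 0.629 heterozygous CPM) almost met. The median log2 fold change was -0.16 over the 8 members and 0.01 over all genes tested.

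**Figure D1:**
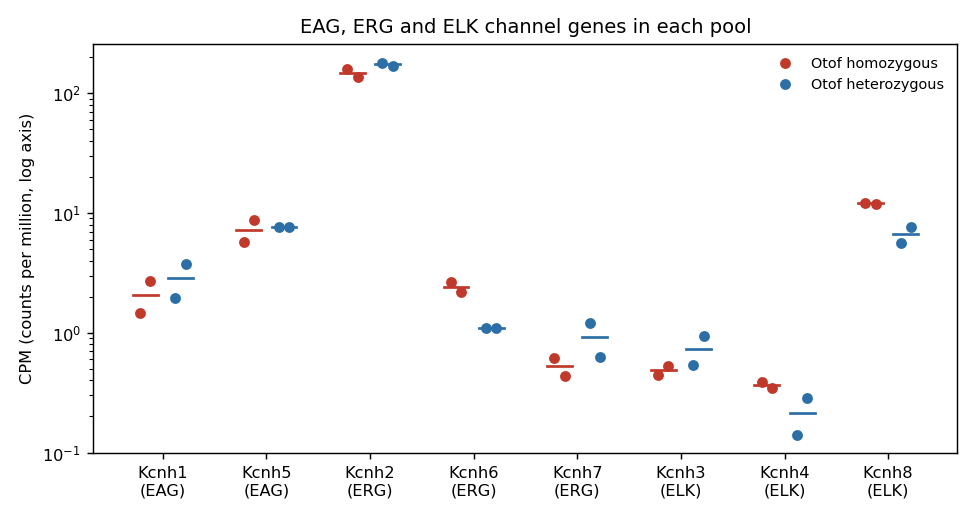
CPM (log axis) of each gene in every pool, homozygous pools left and heterozygous pools right, with 1 point per pool and a line at the mean of the 2 pools. Kcnh8 and Kcnh6 sit higher in both homozygous pools, Kcnh2 is the highest in all pools, and Kcnh4 is below 0.4 CPM in all pools.

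Kcnh2 dominated the family. Per kilobase of its longest coding transcript it had 37.9 and 32.6 CPM in the homozygous pools and 42.7 and 40.2 CPM in the heterozygous pools. Kcnh8 followed at 1.30 to 2.84 CPM per kilobase over the 4 libraries and Kcnh5 at 1.42 to 2.13, and these 2 ranges overlapped. Kcnh6 (0.326 to 0.783), Kcnh1 (0.200 to 0.521) and Kcnh3 (0.119 to 0.255 CPM per kilobase) came next, each overlapping its neighbour in this order. Kcnh4 and Kcnh7 were lowest, at 0.0356 to 0.0983 and 0.0327 to 0.0907 CPM per kilobase, again with overlap. The place of Kcnh7 depends on its long untranslated regions, since per kilobase of coding sequence it had 0.122 to 0.337 CPM and by its mean stood above Kcnh3 and Kcnh4, with ranges that overlapped those of both. Kcnh1 likewise stood above Kcnh6 per kilobase of coding sequence, again with overlap.

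Among the ERG genes, Kcnh2, which encodes ERG1, the pore of the rapid delayed rectifier of the heart, had 160 and 138 CPM in the homozygous pools and 180 and 170 CPM in the heterozygous pools. Both homozygous values lay below both heterozygous ones, by less than the homozygous pools differed from each other. Its mean was 149 ± 16 CPM in homozygous and 175 ± 7.7 CPM in heterozygous pools (SD, n = 2 each). The log2 fold change was -0.23 ± 0.10 (SE, edgeR adjusted p = 0.435, DESeq2 adjusted p = 0.585), with a 95% interval from 0.705-fold to 1.03-fold. At 6418 counts and below per library this was the most deeply counted member, and its interval was the narrowest of the 8. Kcnh2 lies on chromosome 5 (24319589 to 24351604, minus strand), 6.02 Mb from Otof, and is the 1 member on that chromosome. Whether sequence linked to the knockout allele played a part was not tested.

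Kcnh6, which encodes ERG2, is on chromosome 11 (106008124 to 106034549, plus strand). It had 102 and 70 counts in the homozygous pools and 39 and 35 in the heterozygous pools, which is 2.64 and 2.18 CPM in the homozygous and 1.10 and 1.10 CPM in the heterozygous pools. The genotypes did not overlap, and the heterozygous pools were nearly identical. The mean was 2.41 ± 0.32 CPM in homozygous and 1.10 ± 0.0032 CPM in heterozygous pools (SD, n = 2 each). This was the largest fold change among the 8 members, at a log2 value of 1.13 ± 0.29 (SE), but it passed neither test (edgeR adjusted p = 0.247, DESeq2 adjusted p = 0.213). Leaving out 1 pool at a time kept the edgeR log2 fold change between 0.98 and 1.27.

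Kcnh7, which encodes ERG3, spans 491 kb of chromosome 2 (62693414 to 63184287, minus strand) and was sparse. It had 24 and 14 counts in the homozygous pools and 43 and 20 in the heterozygous pools. In CPM these were 0.621 and 0.436 in the homozygous and 1.21 and 0.629 in the heterozygous pools, so that the higher homozygous pool nearly met the lower heterozygous pool. The log2 fold change was -0.79 ± 0.50 (SE, edgeR adjusted p = 0.572), with a 95% interval from 0.234-fold to 1.42-fold. Gca, which overlaps Kcnh7, also lay lower in both homozygous pools, and its part in the Kcnh7 values was not tested. The 3 ERG genes thus had fold changes of both signs, but the differences among them were not tested.

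The EAG genes, Kcnh1 (chromosome 1, 192190774 to 192510159, plus strand) and Kcnh5 (chromosome 12, 74897220 to 75177332, minus strand), overlapped between the genotypes. Kcnh5, which encodes EAG2, had 5.77 and 8.66 CPM in the homozygous pools and 7.65 and 7.67 CPM in the heterozygous pools. The homozygous pools lay on either side of the heterozygous ones. Its log2 fold change was -0.09 ± 0.24 (SE, edgeR adjusted p = 0.915), and the 95% interval from 0.611-fold to 1.45-fold leaves room for a moderate difference in either direction. Kcnh1, which encodes EAG1, had 1.45 and 2.71 CPM in the homozygous pools and 1.97 and 3.77 CPM in the heterozygous pools. In each genotype replicate 2 lay farther above replicate 1 than the genotype means differed, and the log2 fold change was -0.47 ± 0.48 (SE, edgeR adjusted p = 0.741). The sign of Kcnh1 turned without heterozygous replicate 2 (edgeR log2 fold change 0.08), and that of Kcnh5 without homozygous replicate 1 (0.17).

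Among the ELK genes, Kcnh8, which encodes ELK1, stood out. It is on chromosome 17 (52602709 to 52979194, plus strand) and had 470 and 384 counts in the homozygous pools and 199 and 244 in the heterozygous pools. In CPM it had 12.16 and 11.97 in the homozygous pools and 5.59 and 7.67 in the heterozygous pools. Both homozygous pools lay above both heterozygous pools, and the gap was wider than the spread within either genotype. The mean was 12.1 ± 0.14 CPM in homozygous and 6.63 ± 1.5 CPM in heterozygous pools (SD, n = 2 each), a 1.82-fold ratio of means.

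By DESeq2 Kcnh8 rose with a log2 fold change of 0.87 ± 0.26 (SE, adjusted p = 0.0247). By edgeR the log2 fold change was 0.86 ± 0.20 (SE, adjusted p = 0.216), with a 95% interval from 1.27-fold to 2.61-fold. The DESeq2 call was lost whichever pool was left out, while the log2 fold change stayed between 0.66 and 1.11. The DESeq2 adjusted p was 0.404 without homozygous replicate 1, 0.564 without homozygous replicate 2, 0.837 without heterozygous replicate 1 and 0.177 without heterozygous replicate 2. The authors' deposited table of changed genes lists 343 genes with an adjusted p of at most 0.00982 and an absolute log2 fold change of at least 0.50, and 0 of the 8 members are in it. The table's name speaks of removed outliers, and whether all 4 libraries entered its fit is not stated.

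**Figure D2:**
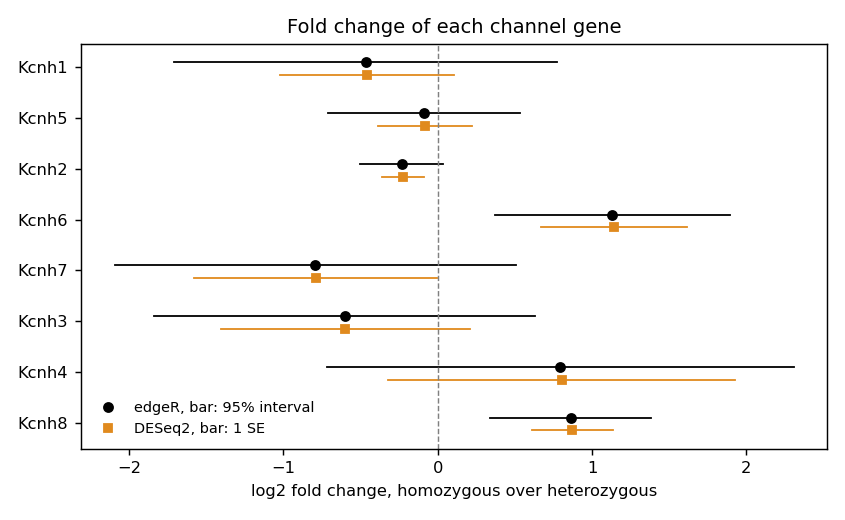
The log2 fold change of each gene, homozygous over heterozygous, by edgeR (circles, bars give the 95% interval) and by DESeq2 (squares, bars give 1 SE). The intervals of Kcnh6 and Kcnh8 lie above 0 before adjustment for the number of genes tested, and the others cross 0.

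Kcnh3 (chromosome 15, 99224861 to 99242817, plus strand) and Kcnh4 (chromosome 11, 100740376 to 100759942, minus strand) were the most thinly counted members beside Kcnh7. Kcnh3, which encodes ELK2, a channel whose loss makes mouse hippocampal neurons hyperexcitable, had 17 and 17 counts in the homozygous pools and 19 and 30 in the heterozygous pools. In CPM these were 0.440 and 0.530 in the homozygous and 0.534 and 0.944 in the heterozygous pools, with the nearest pools almost equal. The log2 fold change was -0.60 ± 0.48 (SE, edgeR adjusted p = 0.660). Kcnh4, which encodes ELK3, had 15 and 11 counts in the homozygous pools and 5 and 9 in the heterozygous pools. In CPM these were 0.388 and 0.343 in the homozygous and 0.141 and 0.283 in the heterozygous pools, without overlap, and the log2 fold change was 0.79 ± 0.58 (SE, edgeR adjusted p = 0.631). Kcnh4 passed the filter on low counts, about 0.292 CPM in at least 2 libraries, through its homozygous pools only, and its heterozygous pools alone would not have brought it into the test.

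**Figure D3:**
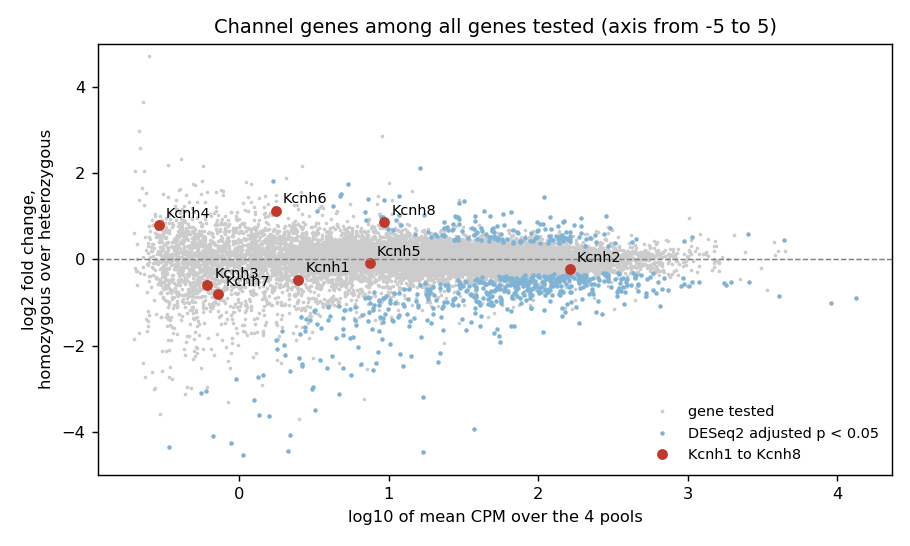
Each gene tested by its mean CPM over the 4 pools (log10) and its log2 fold change, homozygous over heterozygous, by edgeR, with DESeq2 calls in blue and the 8 channel genes in red. Kcnh8 lies among the called genes above 0, Kcnh6 lies higher but at a lower count, and 8 genes beyond a log2 fold change of 5 in either direction are outside the axis.

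The make-up of the family was compared within each library as the share of the summed CPM per kilobase. ERG genes held 89.2% and 85.7% of it in the homozygous pools and 92.2% and 90.0% in the heterozygous pools, nearly all of it Kcnh2. ELK genes held 7.03% and 7.79% in the homozygous pools and 3.17% and 4.70% in the heterozygous pools. EAG genes held 3.73% and 6.47% in the homozygous pools and 4.61% and 5.35% in the heterozygous pools. The ERG and ELK shares did not overlap between the genotypes, with mean differences of -3.59 and 3.47 percentage points, whereas the EAG shares overlapped. Shares within a library add up to the whole, so the ERG and ELK differences are not separate results. An exact two-sided permutation test gave p = 0.333 for the ERG and the ELK share, which is the smallest that 2 pools against 2 allow, and p = 1 for EAG. Most of the ELK share was Kcnh8, which held 6.53% and 7.20% in the homozygous and 2.79% and 3.97% in the heterozygous pools. Relative to Kcnh2 in the same library, Kcnh8 was at 7.47% and 8.57% of its level per kilobase in the homozygous pools and at 3.05% and 4.46% in the heterozygous pools.

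**Figure D4:**
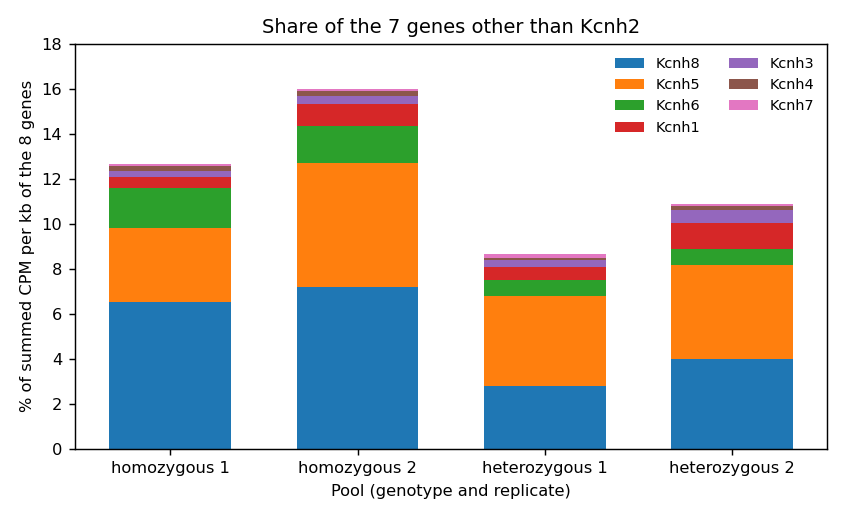
Share of the 7 genes other than Kcnh2 in the summed CPM per kilobase of the 8 genes, by pool, homozygous pools left. The Kcnh8 segment is 6.53% and 7.20% in the homozygous pools and 2.79% and 3.97% in the heterozygous pools.

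By the distance between log2 CPM profiles, each centred on its mean over the 4 libraries, the 5 genes most like Kcnh8 among 13348 were Kcna6, Islr2, Mreg, Rsph9 and Cdkn2c. Their distances were 0.112 to 0.144 on the log2 scale. Kcna6, a low-threshold K+ channel subunit, had 213 and 225 CPM in the homozygous pools and 109 and 142 CPM in the heterozygous pools. Islr2, a membrane protein of growing axons, had 197 and 180 CPM in the homozygous pools and 83.3 and 125 CPM in the heterozygous pools. Mreg had 37.8 and 39.2 CPM in the homozygous and 16.9 and 22.1 CPM in the heterozygous pools. These 3 genes, like Rsph9 and Cdkn2c below, lay higher in both homozygous pools without overlap. Rsph9, a radial spoke protein of motile cilia, had 11.7 and 11.7 CPM in the homozygous pools and 5.14 and 6.67 CPM in the heterozygous pools. Cdkn2c, an inhibitor of cyclin-dependent kinases, had 28.5 and 29.5 CPM in the homozygous pools and 14.1 and 20.7 CPM in the heterozygous pools. All 5 rose by DESeq2 (adjusted p from 2.74e-05 to 0.0354), and heterozygous replicate 1 was lowest for each, as it was for Kcnh8. Without that pool all 5 DESeq2 calls were lost, with adjusted p of 0.0754 for Kcna6, 0.124 for Islr2, 0.09365 for Mreg, 0.549 for Rsph9 and 0.809 for Cdkn2c. Rsph9 was lost whichever pool was left out (DESeq2 adjusted p from 0.125 to 0.549), and Cdkn2c was called only without heterozygous replicate 2 (0.0233). With 4 libraries many genes can share a profile, and the likeness is a description. The 5 genes were picked for this likeness, so the order of their pools was fixed by the choice. Their DESeq2 calls follow from it in large part.

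**Figure D5:**
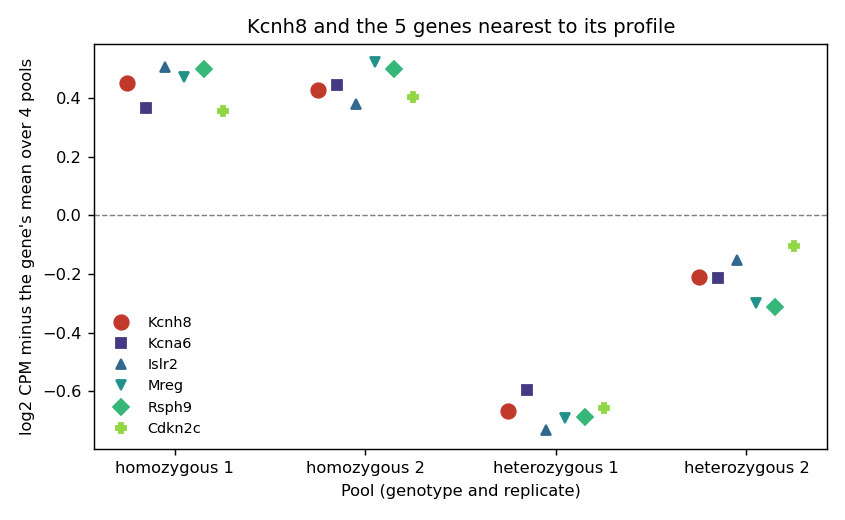
Log2 CPM of Kcnh8 and of the 5 genes nearest to it, minus each gene's mean over the 4 pools, with 1 symbol per gene and homozygous pools left. All 6 genes are above their mean in both homozygous pools and lowest in heterozygous replicate 1, which for the 5 follows from how they were chosen.

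The list of KCNE subunits and other regulatory partners gave 1 gene past DESeq2. Whether each listed gene acts on EAG, ERG or ELK channels was not tested. Of 14 listed partners, all were found and 11 passed the filter, of which 0 rose and 1 fell by DESeq2, with a median log2 fold change of -0.12. The one that fell was Kcne5, a single-pass KCNE subunit listed under its older symbol Kcne1l, on chromosome X (142304752 to 142306294, minus strand). It had 3.54 and 4.11 CPM in the homozygous pools and 7.36 and 11.5 CPM in the heterozygous pools. The genotypes did not overlap, and the log2 fold change was -1.29 ± 0.34 (SE, DESeq2 adjusted p = 0.00562) and -1.30 ± 0.27 by edgeR (adjusted p = 0.198). By DESeq2 this call held without heterozygous replicate 1 (adjusted p = 0.0448). It was lost without homozygous replicate 1 (DESeq2 adjusted p = 0.158), homozygous replicate 2 (0.119) or heterozygous replicate 2 (0.9999).

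Kcne1 and Kcne2, KCNE subunits known to associate with ERG1, were at or near the limit of detection. Kcne1 had 0 and 0 counts in the homozygous pools and 1 and 0 in the heterozygous pools. Kcne2 had 7 and 4 counts in the homozygous pools and 7 and 0 in the heterozygous pools. Calm2, a calmodulin gene, had 620 and 688 CPM in the homozygous pools and 809 and 841 CPM in the heterozygous pools. Its log2 fold change was -0.33 ± 0.11 (SE, edgeR adjusted p = 0.306, DESeq2 adjusted p = 0.0529). Of the 15 genes listed for folding, trafficking and turnover of ERG1, such as Hsp90aa1, Fkbp8 and the ubiquitin ligase Nedd4, 0 passed DESeq2 or an unadjusted edgeR p of 0.05, and the median log2 fold change was -0.06.

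Calls in both directions were found among other voltage-gated K+ channel genes. Of 32 pore subunits outside the family 28 were tested, and by DESeq2 6 fell and 2 rose, with a median log2 fold change of -0.36. Over all genes tested DESeq2 called 4.13%, 0.983% as higher and 3.15% as lower, so calls were more frequent in this list. Only the split by direction was close, with 506 of the 664 calls over all genes being lower. The 2 that rose were Kcna6 (0.80 ± 0.15, edgeR log2 fold change and SE) and Kcnc4 (0.92 ± 0.16), named after their values were seen. Whether the Kcnh genes differ from these channels as a group was not tested.

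Markers of several cell types moved with genotype in the same pools. Of 23 neuronal markers 11 fell and 1 rose by DESeq2, and their summed level was 6787 and 6440 CPM in the homozygous pools and 9362 and 9222 CPM in the heterozygous pools. Slc17a6, a vesicular glutamate transporter, had 30.5 and 39.9 CPM in the homozygous pools and 94.9 and 111 CPM in the heterozygous pools, and Thy1 had a log2 fold change of -0.75 ± 0.09 (SE, edgeR). Of 16 Schwann cell and myelin markers, Pmp2 (-1.77 ± 0.11, edgeR log2 fold change and SE) and Drp2 (-1.03 ± 0.15) among them, 9 fell and 0 rose by DESeq2, and their sum was 27445 and 22938 CPM in the homozygous and 44426 and 45956 CPM in the heterozygous pools. Of 10 central glia markers 2 fell, Slc1a2 and Aldh1l1, and 0 rose by DESeq2. The DESeq2 call of Slc1a2 was lost without heterozygous replicate 2 (adjusted p = 0.0930), and that of Aldh1l1 without heterozygous replicate 1 (0.774) or 2 (0.9999). The DESeq2 log2 fold change of Aldh1l1 was -2.39 without homozygous replicate 1 and -1.14 without homozygous replicate 2. Their sum was 1609 and 531 CPM in the homozygous pools and 1974 and 1908 CPM in the heterozygous pools, so homozygous replicate 2 stood apart.

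The other lists gave fewer calls. Of the 8 hair cell markers tested Espn rose and Pcdh15 fell by DESeq2, and both calls were lost whichever pool was left out (DESeq2 adjusted p of at least 0.490 and 0.558). All 18 hair cell markers summed to 223 and 205 CPM in the homozygous and 238 and 247 CPM in the heterozygous pools. Of the 7 skeletal muscle markers tested Ryr1 fell and 0 rose by DESeq2, and the call was lost without heterozygous replicate 1 (DESeq2 adjusted p = 0.0642). All 13 muscle markers summed to 105 and 85.8 CPM in the homozygous and 92.1 and 80.4 CPM in the heterozygous pools. Most of that sum was Myl1, a muscle myosin light chain, with 93.8 and 77.0 CPM in the homozygous and 62.5 and 66.0 CPM in the heterozygous pools, while 5 of the 7 fold changes were below 0. Myl1 had a log2 fold change of 0.41 ± 0.12 (edgeR, DESeq2 adjusted p = 0.118). Of the 8 smooth muscle and pericyte markers 0 passed DESeq2, and their sums were 320 and 283 CPM in the homozygous pools and 323 and 226 CPM in the heterozygous pools. Among them Pdgfrb had a log2 fold change of 0.31 ± 0.08 (edgeR, DESeq2 adjusted p = 0.0757) and Cspg4 one of -0.21 ± 0.14 (edgeR, DESeq2 adjusted p = 0.869). The higher Kcnh8 values thus stood beside lower neuronal and myelin sums in both homozygous pools. The part of cell make-up in the Kcnh values was not tested.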

How the data were processed

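The authors deposited estimated counts per gene symbol, using Salmon, with mm10 as the build, per the submitters' processing notes, and the nf-core pipeline, per the labels. Neither versions nor annotation are given in the sources used here. The authors' deposited table of their DESeq2 comparison gives, per the file headers, a log2 fold change and its SE, a Wald score, p-values and a mean normalised signal. Estimated counts were rounded. The quasi-likelihood test of edgeR 4.0.16 (R 4.3.3) was the first test, with trimmed mean of M-values scaling, filterByExpr, a model holding genotype alone and p-values adjusted by Benjamini-Hochberg over 15359 genes. DESeq2 1.42.0 (default settings, whole table) was the other test, and limma 3.58.1 (voom) was added. "Rose" and "fell" mean a DESeq2 adjusted p under 0.05. SE and 95% intervals of edgeR come from its F statistic. CPM use scaled library sizes, 31793109 to 38659280 counts.

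Positions, lengths and sequences come from GENCODE M21 (GRCm38, the build called mm10). Named were all members, partners past either test (edgeR unadjusted, at most 5 a list), 2 genes of smallest p per marker list and the 5 genes nearest in profile. A few others, named as examples or as undetected markers, were chosen after their values were seen. Members and lists were chosen with earlier results of these data known. Tested on simulated counts of the same design, both tools recovered most changed genes but called more unchanged ones than a threshold of 0.05 allows. DESeq2 did so more often than edgeR, but the counts were drawn with edgeR's own dispersion estimates, so they cannot rank the tools. A call by DESeq2 alone, which edgeR did not make, is read with caution. Replicates differed beyond sampling noise (a chi-square over its degrees of freedom of 49.0 in homozygous and 29.8 in heterozygous pools). The pools are separate samples per the labels, but whether pups of a litter were shared between pools is not stated. With 2 pools a genotype, edgeR had 2 residual degrees of freedom. Alternatives were RLE or upper quartile scaling, no filter, at least 1 CPM in 2 libraries, a replicate block, and leaving out each pool.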

Additional observations from a re-analysis of the deposited data

How the results depend on the processing

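edgeR called 0 genes with the other scalings and filters, and limma voom, added after seeing the data, also called 0. DESeq2 called 664 genes and 1 member, Kcnh8 (log2 fold change 0.87 by DESeq2). Leaving out each pool in turn gave 0 to 60 genes by edgeR and, added after seeing the data, 169 to 686 by DESeq2 (686 without homozygous replicate 1, 307 without homozygous replicate 2, 223 without heterozygous replicate 1, 169 without heterozygous replicate 2), with 0 members in each case; the 60 of edgeR came without homozygous replicate 1. The lone pool of a genotype is then assumed to vary like the other genotype. Over those settings the log2 fold change of Kcnh1 ranged from -0.97 to 0.076 by edgeR and to 0.074 by DESeq2 and that of Kcnh5 from -0.40 to 0.17 by edgeR and to 0.18 by DESeq2, and both changed sign. The other 6 members kept their sign under every alternative that tested them, but with a pool left out the edgeR log2 fold change ran from -1.18 to -0.24 for Kcnh7, from -0.96 to -0.14 for Kcnh3, from 0.37 to 1.36 for Kcnh4 and from -0.36 to -0.12 for Kcnh2. With the replicate block edgeR called 495 genes and DESeq2 (also added) 600, and 0 members in either (Kcnh8 adjusted p = 0.0689 by edgeR and 0.0899 by DESeq2). The labels do not say that the numbers pair the pools. The difference of replicate 1 from replicate 2 in the homozygous pools correlated across genes with that in the heterozygous pools (r = 0.31), a hint from the data only. The differences in share ranged over the pools left out from 2.71 to 4.24 percentage points for ELK and from -5.34 to -1.85 for ERG, while that of EAG had either sign (-1.25 to 1.49). With exons or coding bases (added) as length, ELK and ERG kept their sign. At 1 CPM in 2 libraries Kcnh3, Kcnh4 and Kcnh7 were not tested. These 3 genes had 5 to 43 counts per library.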
